A study of Rattus norvegicus with 25 samples.

Results

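The 4 rat miRNA hairpins miR-547, miR-201, miR-509 and miR-3585 lie together on the X chromosome, and their mature arms were followed in sperm of morphine- and saline-exposed males. The members were chosen by name, as every row of the miRNA count matrix that begins with rno-miR-547-, rno-miR-201-, rno-miR-509- or rno-miR-3585-, which gave 8 mature miRNAs of 562. The group was selected on the differences between collection timepoints seen in an earlier analysis of the same libraries, with rno-miR-547-3p at its head, so the timepoint differences of the members are given below as a description and without a test.

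Small RNA (smRNA) was sequenced from sperm of 25 Sprague–Dawley males of the paternal (F0) generation. The males had self-administered morphine at 0.75 mg/kg in each intravenous infusion, or saline alone, for 3 h a day during 60 days, and sperm came from the cauda epididymis after a double swim-up. Collection was at the end of self-administration in 7 saline males (F0_SAL) and 7 morphine males (F0_MOR), and after a further 90 days without self-administration in 5 saline males (F0_ABS-SAL) and 6 morphine males (F0_ABS-MOR). Abstinent males were therefore older as well as further from self-administration and from surgery, and these differences cannot be told apart. All males, saline ones included, carried a jugular catheter. The matrix columns name the timepoint only as REG or TO, and the number of columns was what tied REG to the nonabstinent and TO to the abstinent males.

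A miRNA hairpin is cut into a 5p and a 3p arm, of which 1 is usually loaded into an Argonaute protein and kept while the other is degraded. The seed, bases 2 to 8 of the mature miRNA, is the stretch that pairs with target mRNAs. The X chromosome between Slitrk2 and Fmr1 carries a fast-evolving set of miRNA genes, the miR-506 family among them, known for their expression in testis. Cauda sperm have left the testis and passed through the epididymis, a duct lined by epithelium and wrapped in smooth muscle.

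In the RefSeq annotation of the GRCr8 assembly, 18 miRNA genes lie between Slitrk2 and Fmr1 and the 4 of interest are the last of them before Fmr1, all on the minus strand. Mir3585 is at chrX:151706708-151706825, Mir201 at chrX:151711783-151711862, Mir547 at chrX:151712081-151712161 and Mir509 at chrX:151732801-151732885. Mir201 and Mir547 are 218 bases apart, while Mir509 lies 20639 bases beyond Mir547. No other miRNA gene was annotated within 1 Mb of Mir547. Reads had been counted on an older assembly, so these positions give the order of the genes and were not used in counting. Mature RefSeq sequences were found for 7 of the 8 members, rno-miR-201-3p being the one without. The prevailing arm of each hairpin is shown here with the other arm of miR-547 and miR-3585, because the arm comparisons below turn on them, and capitals mark the seed.

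rno-miR-547-3p: aUUGGUACuucuuuaagugaga
rno-miR-547-5p: uCACUUCAggauguaccaccca
rno-miR-201-5p: cACUCAGUaaggcauuguuc
rno-miR-509-3p: uGAUUGACaugucugcagugga
rno-miR-3585-3p: uGAACGGCccuuguuguga
rno-miR-3585-5p: uUCACAAGaaggugucuuucau

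Each of the 7 members with a sequence had its own seed. None of the other matrix miRNAs with a RefSeq sequence, of which there were 520 of 562 with the members included, shared any of these seeds. Over the first 6 seed bases there were 3 matches, rno-miR-201-5p with rno-miR-880-5p, rno-miR-509-5p with rno-miR-880-3p and rno-miR-3585-5p with rno-miR-350, of which miR-880 lies in the same X-linked stretch. Over their whole length the hairpins were 47.9% to 60.2% identical, with miR-547 and miR-509 the closest pair.

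The libraries held 1032386 to 3203211 miRNA reads each. Values are given as normalized counts, meaning raw counts scaled by edgeR's TMM factors to the geometric mean library. Counts are of reads assigned to a mature miRNA and were not divided by length. After edgeR's filter on low counts 317 miRNAs were tested, among them 7 of the 8 members. rno-miR-547-5p did not pass the filter when only F0_MOR and F0_SAL were fitted. It reached 10 reads in 4 of 7 F0_SAL and 2 of 7 F0_MOR libraries, against 5 of 5 in F0_ABS-SAL and 6 of 6 in F0_ABS-MOR. The defining sperm miRNAs of the miR-34 and miR-449 families made up a median of 38.9% to 48.7% of miRNA reads in the 4 groups. Markers of other cell types were also present and are given beside the results they move with. In such bulk samples, fewer cells of a type and less RNA per cell cannot be told apart.

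rno-miR-547-3p was by far the most abundant member and ranked 88 of 562 miRNAs by mean log2 level. In F0_SAL its normalized count had a lowest value of 360, a median of 529 and a highest value of 603 over 7 libraries. In F0_MOR it ran from 324 through a median of 484 to 697, so both nonabstinent groups covered the same range. The 5 F0_ABS-SAL libraries had 791, 1440, 1481, 1523 and 2122. The 6 F0_ABS-MOR libraries had a lowest value of 1118, a median of 1594 and a highest value of 2030. Every abstinent library therefore lay above every nonabstinent library of its own treatment, and the 2 abstinent groups overlapped each other almost wholly. The mean was 508 ± 89.4 (SD, n = 7) for F0_SAL, 526.4 ± 141.6 (SD, n = 7) for F0_MOR, 1471 ± 472 (SD, n = 5) in F0_ABS-SAL and 1554 ± 334 (SD, n = 6) in F0_ABS-MOR.

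The other arm of that hairpin, rno-miR-547-5p, was present at a small fraction of this level. Its median too was higher in the abstinent than in the nonabstinent group of each treatment. Its median normalized count was 12.5 in F0_SAL (8.12 to 26.5) and 11.7 in F0_MOR (2.66 to 26.3). In F0_ABS-SAL the 5 values were 21.1, 35.2, 44.2, 44.8 and 48.6, of which the lowest fell inside the F0_SAL range. In F0_ABS-MOR the values ran from 28.9 through a median of 35.4 to 93.6, all above F0_MOR.

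rno-miR-201-5p, the main product of the hairpin next to miR-547, was the second most abundant member. Its normalized count had a median of 184 in F0_SAL (at most 241) and 241 in F0_MOR (165 to 346). The F0_ABS-SAL libraries had 261, 282, 318, 377 and 491, all above F0_SAL, but 4 of the 6 F0_ABS-MOR libraries, not all, exceeded F0_MOR, with a median of 380 (258 to 485). Its sister arm rno-miR-201-3p was scarce, at 15.5 ± 6.22 (SD, n = 7), 16.8 ± 9.98 (SD, n = 7), 24.8 ± 4.76 (SD, n = 5) and 30.2 ± 15.8 (SD, n = 6) in F0_SAL, F0_MOR, F0_ABS-SAL and F0_ABS-MOR, and its groups overlapped.

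The outer hairpins were far scarcer. Mean normalized counts of rno-miR-509-3p were, for F0_SAL, 26.3 ± 12.5 (SD, n = 7), for F0_MOR, 36.8 ± 16.7 (SD, n = 7), for F0_ABS-SAL, 51.4 ± 16.5 (SD, n = 5), and for F0_ABS-MOR, 54.0 ± 24.0 (SD, n = 6). For rno-miR-3585-3p the same means were 18.1 ± 7.15, 28.7 ± 15.0, 34.9 ± 11.1 and 45.7 ± 19.3, and for rno-miR-3585-5p they were 26.8 ± 10.2, 31.1 ± 21.4, 68.7 ± 19.9 and 68.6 ± 45.6. Abstinent and nonabstinent groups overlapped for each of these 3 miRNAs. rno-miR-509-5p, the remaining member, did not pass the filter. It had 116 reads in all 25 libraries together and none in 8 of them, where a count of 0 allows up to 3 reads, and its group means were 1.72, 1.69, 5.23 and 7.66 normalized counts. These scarce members carry a large counting error, which the intervals below include.

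**Figure D1:**
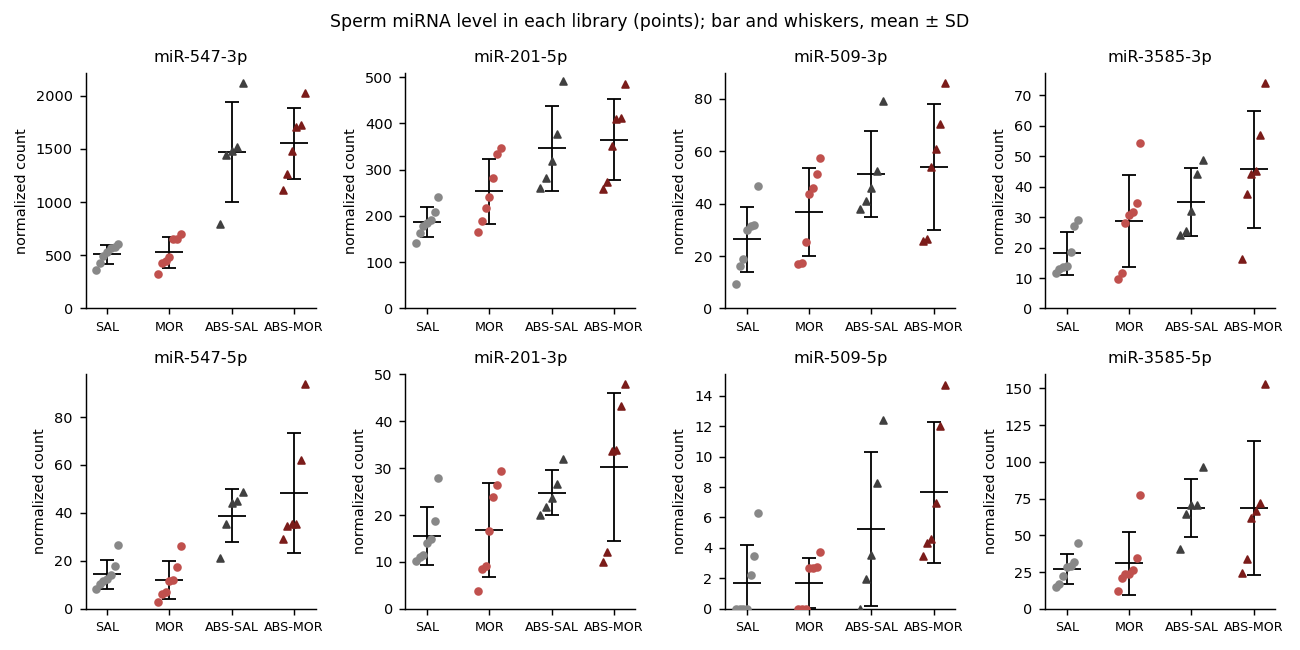
Normalized count of each member (vertical axes, linear from 0) in every library, by group, with the group mean and SD as bar and whiskers. For miR-547-3p the lowest abstinent saline library (791) stands above the highest nonabstinent saline library (603), while the other scales show how few reads the outer hairpins gave.

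The timepoint comparisons summarise these levels. Between F0_ABS-SAL and F0_SAL, log2 fold changes of the 7 members tested were 1.53 for rno-miR-547-3p (a 2.90-fold difference, 95% interval 2.13 to 3.94), 1.42 for rno-miR-547-5p, 1.35 for rno-miR-3585-5p, 0.97 for rno-miR-509-3p, 0.93 for rno-miR-3585-3p, 0.89 for rno-miR-201-5p and 0.68 for rno-miR-201-3p. Between F0_ABS-MOR and F0_MOR they were 2.03 for rno-miR-547-5p, 1.56 for rno-miR-547-3p (2.95-fold, 2.19 to 3.97), 1.12 for rno-miR-3585-5p, 0.82 for rno-miR-201-3p, 0.65 for rno-miR-3585-3p, 0.56 for rno-miR-509-3p and 0.53 for rno-miR-201-5p. The members' median was 0.97 in saline males and 0.82 in morphine males, against 0.00 over all 317 miRNAs in both. A miRNA was called where its log2 fold change exceeded 0.58 in size and its Benjamini–Hochberg adjusted p was below 0.1. Of all miRNAs tested, 22.4% and 11% were called higher in these 2 comparisons, shares that moved with the scaling: on total counts 110 and 57 of 317 were called higher, against 71 and 35. Because the members were chosen on these very contrasts, their own calls are not given. Abstinent and nonabstinent libraries did not overlap for rno-miR-547-3p and rno-miR-201-5p in saline males and for rno-miR-547-3p and rno-miR-547-5p in morphine males. That was 2 of 7 members each, while 4.73% and 1.89% of all miRNAs were so separated. For the same reason nothing is read from the difference between these shares.

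Not all hairpins of the stretch shifted alike. Within a library the ratio of raw counts needs no normalization, and rno-miR-547-3p gave 2.77 ± 0.568 (SD, n = 7) reads for each rno-miR-201-5p read of the F0_SAL group and 2.08 ± 0.180 (SD, n = 7) of the F0_MOR group. The ratio was 4.25 ± 0.889 (SD, n = 5) in F0_ABS-SAL and 4.31 ± 0.510 (SD, n = 6) in F0_ABS-MOR. All 6 F0_ABS-MOR libraries (3.62 to 4.93) exceeded all 7 F0_MOR libraries (1.86 to 2.30), whereas F0_ABS-SAL (3.03 to 5.40) and F0_SAL (2.03 to 3.39) overlapped. rno-miR-547-3p thus made up 63.5% ± 4.06, 58.1% ± 3.46, 71.3% ± 4.88 and 71.7% ± 4.01 of all member reads in F0_SAL, F0_MOR, F0_ABS-SAL and F0_ABS-MOR. This ratio was picked after the values had been seen and is a description.

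The miRNAs at the Slitrk2 end of the stretch served as the comparison closest in position. The list was set by name and held 12 of the 14 miRNA genes nearer to Slitrk2, without Mir3551 and Mir3580. It had 23 arms in the matrix and 21 tested, from rno-miR-741-3p as the most abundant (a mean of 19554 normalized counts) to rno-miR-742-3p as the least (9.38). In saline males 0 of 21 arms were called higher at the abstinent timepoint and 2 were called lower, with a list median of -0.31. The 2 were rno-miR-743b-5p (log2 fold change -0.76, edgeR adjusted p = 0.00957) and rno-miR-743b-3p (-0.61, adjusted p = 0.0386). DESeq2, by its own test or its size factors alone, called 4 lower, these and rno-miR-741-3p and rno-miR-743a-3p. Scaling by total count instead left none called and moved the list median to 0.08, where the median of all miRNAs was 0.39. In morphine males 0 of 21 arms were called in either direction (median -0.14), but on total counts, with a list median of 0.05 against 0.18 over all miRNAs, and with TMM factors from both matrices joined (list median -0.05, all miRNAs 0.11) 1 arm was called higher, rno-miR-880-3p, which is named here after its values were seen. Background shares of calls as lower were 10.7% and 10.1%. Expressed within each library, all 8 members gave 1.07 ± 0.248 reads per 100 reads of that list in F0_SAL (SD, n = 7), 1.47 ± 0.585 in F0_MOR (SD, n = 7), 3.89 ± 1.45 (SD, n = 5) in F0_ABS-SAL and 3.99 ± 1.27 (SD, n = 6) in F0_ABS-MOR. The lowest abstinent value, 2.22, was just above the highest nonabstinent one, 2.21. As the members were chosen for their rise, this difference between neighbouring stretches was not tested.

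Marker miRNAs of other cell types moved with the timepoint too. Of 6 epithelial markers (miR-200a-3p, miR-200b-3p, miR-200c-3p, miR-141-3p, miR-429 and miR-205), 4 were called higher in saline and 2 in morphine males. Their summed level ranged from 11787 to 19483 normalized counts in F0_SAL, 13544 to 20437 in F0_MOR, 15682 to 34609 in F0_ABS-SAL and 15798 to 31303 in F0_ABS-MOR, and none was at 0 in any library. Both endothelial arms of miR-126a were called higher in both treatments, and of 4 muscle markers 3 and 1 were. Under TMM scaling the miR-34 and miR-449 sperm markers went the other way. Of 4 tested, 3 were called lower in saline males (median -0.67) and 0 in morphine males (median -0.39). On total counts only 1 of all 317 miRNAs was called lower in saline males, against 34 with TMM, so most of these calls depend on the scaling. Of 5 leukocyte markers 0 and 1 were called, the latter lower, and of 3 erythroid markers 0 and 3, all lower. Over all 317 miRNAs, 22.4% and 11% were called higher and 10.7% and 10.1% lower in saline and morphine males. One F0_ABS-SAL library had muscle markers at 149671 normalized counts, most of it miR-143-3p, against at most 52857 in the other libraries of its group. That library also had the highest epithelial sum of its group (34609) and its highest rno-miR-547-3p count (2122). Without it rno-miR-547-3p differed between the saline groups by 1.32 on the log2 scale and the members' median was 0.80.

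With the mean log2 level of the epithelial markers as a covariate, a fit added after the data had been seen, the timepoint differences became smaller. rno-miR-547-3p was then at 0.94 in saline and 1.15 in morphine males, rno-miR-201-5p at 0.29 and 0.11, and rno-miR-509-3p at -0.08 and -0.27, a change of sign. Under the same covariate rno-miR-547-5p stood at 0.76 and 1.49, rno-miR-3585-3p at 0.44 and 0.27 and rno-miR-201-3p at 0.36 and 0.60. With sperm, endothelial or muscle markers as the covariate, rno-miR-547-3p kept log2 fold changes of 1.34 to 1.80 in saline and 1.42 to 1.74 in morphine males. rno-miR-3585-5p, at 1.35 and 1.12 without a covariate, was at 0.26 and 0.31 with the endothelial covariate, 0.78 and 0.74 with the epithelial, 0.91 and 0.98 with the muscle and 1.80 and 1.40 with the sperm covariate. Set directly against the summed epithelial markers, rno-miR-547-3p amounted to 2.52 to 4.13 per 100 in F0_SAL, 2.40 to 3.86 in F0_MOR, 5.04 to 9.09 in F0_ABS-SAL and 6.48 to 8.003 in F0_ABS-MOR. All abstinent libraries lay above all nonabstinent ones in this ratio, as they did in rno-miR-547-3p alone. The ratio is a description, and the part of epithelial RNA was not tested with it.

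**Figure D2:**
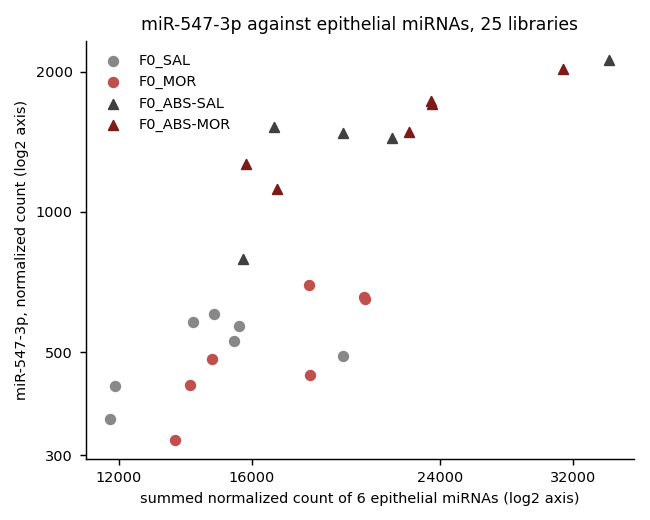
Normalized count of miR-547-3p (vertical, log2 axis) against the summed normalized count of 6 epithelial miRNAs (horizontal, log2 axis) in 25 libraries, with circles for nonabstinent and triangles for abstinent males. Within each set miR-547-3p tends to be higher where the epithelial sum is higher. At a similar epithelial sum the abstinent libraries lie above the nonabstinent ones, which is a description and was not tested.

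Treatment comparisons within a timepoint were not used to choose the members and could be tested. The interaction of treatment and timepoint equals the difference between the saline and morphine timepoint contrasts, which did serve to choose them. Its values are therefore given as a description, and nothing is read from them. No member was called between F0_MOR and F0_SAL, between F0_ABS-MOR and F0_ABS-SAL, or in the interaction of treatment and timepoint (0 of 7 each), and the background was 0% of 317 miRNAs in each. In the order given, 1, 0 and 0 members, and 23, 4 and 10 of all miRNAs, had an unadjusted edgeR p under 0.05. DESeq2 called 0 miRNAs in each as well, with 30, 5 and 11 at an unadjusted p under 0.05, and limma-voom with quality weights called 1, 0 and 0, the 1 being rno-miR-150-5p, which is no member. The 1 member was rno-miR-201-5p in nonabstinent males, whose mean was 253 ± 69.9 with morphine and 187 ± 31.9 with saline (SD, n = 7 each), with a log2 fold change of 0.44 (SE 0.20, edgeR adjusted p = 0.589, adjusted p from 0.194 to 0.863 over the alternatives). rno-miR-3585-3p had the largest difference there, 0.66, with a 95% interval of -0.06 to 1.38 (edgeR adjusted p = 0.637).

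For rno-miR-547-3p the treatment difference had a narrow interval around 0. Its log2 fold change was 0.05 between F0_MOR and F0_SAL (95% interval -0.36 to 0.46, edgeR adjusted p = 0.938) and 0.08 between F0_ABS-MOR and F0_ABS-SAL (-0.38 to 0.54, adjusted p = 1.00). The interaction, as a description, was -0.03 (-0.64 to 0.59). The other members ran from -0.30 (rno-miR-547-5p) to 0.66 in nonabstinent and from 0.00 (rno-miR-3585-5p) to 0.38 (rno-miR-3585-3p) in abstinent males. For 3 of the other 6 members in each comparison the 95% interval reached beyond 1 in size on the log2 scale, so a 2-fold difference lay within it. The members' median was 0.23 in nonabstinent males, against 0.06 over all miRNAs, and 0.08 in abstinent males, against -0.01.

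**Figure D3:**
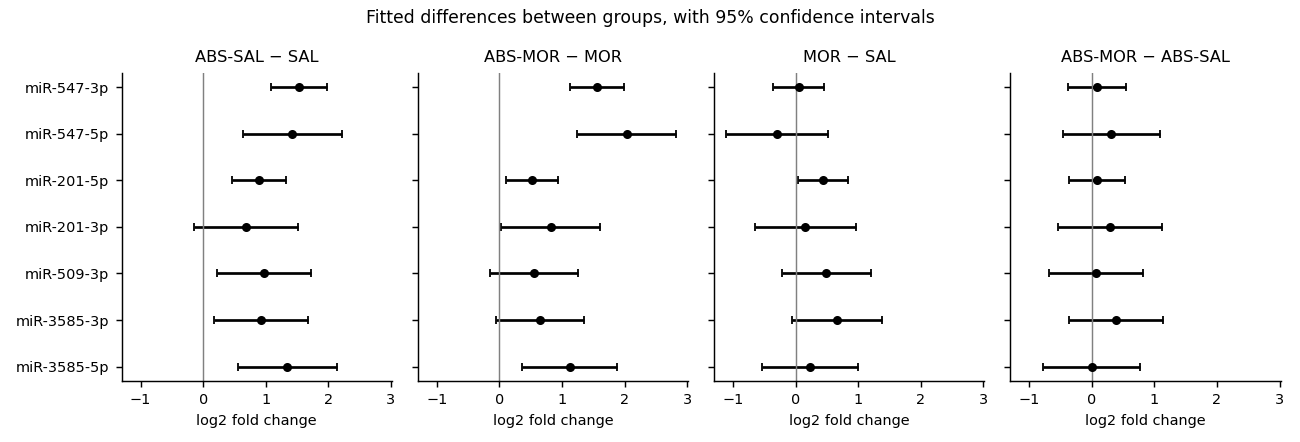
Log2 fold changes (horizontal axes) of the 7 tested members with 95% confidence intervals, in the 2 timepoint comparisons on the left and the 2 treatment comparisons on the right. miR-547-3p is at 1.53 and 1.56 in the timepoint panels and at 0.05 and 0.08 in the treatment panels.

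The arm balance of the hairpins offered a second readout that needs no normalization. The 3p arm of miR-547 held 97.3%, 97.9%, 97.4% and 97.1% of the reads of both arms in F0_SAL, F0_MOR, F0_ABS-SAL and F0_ABS-MOR, summed over the libraries of each group. Single libraries ranged from 95.6% (95% Wilson interval 93.3 to 97.1) to 99.2% (97.1 to 99.8). Intervals of this kind cover counting error only, as the reads carry no molecular identifiers. The 3p arm of miR-509 prevailed as well, with 93.5%, 94.8%, 90.7% and 86.5%, while that of miR-201 was the minor one at 7.40%, 6.49%, 6.76% and 8.01%. miR-3585 yielded both arms in similar amounts, with 40.5%, 46.8%, 33.5% and 38.8% of reads from the 3p arm, and single libraries ranged from 21.7% to 71.9%.

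Arm ratios were compared as log2 of 3p over 5p raw counts with 0.5 added to each, by two-sided exact permutation tests over libraries, 4 hairpins by 2 treatment comparisons giving 8 tests. For miR-547 the mean was 5.15 ± 0.40 for F0_SAL and 5.62 ± 0.78 for F0_MOR (SD, n = 7 each), and the difference of 0.47 did not pass (exact p = 0.183, adjusted p = 0.600). Its difference between F0_ABS-MOR (5.10 ± 0.42, SD, n = 6) and F0_ABS-SAL (5.22 ± 0.27, SD, n = 5) was -0.12 (exact p = 0.597, adjusted p = 0.797). In the other hairpins the differences ran from -1.19 to 0.50, and the lowest adjusted p of the 8 tests was 0.600. By timepoint, as a description, the ratio of miR-547 differed by 0.07 in saline and -0.52 in morphine males, and neither this nor any other hairpin's ratio separated the libraries of 2 timepoints. Where only the libraries with at least 10 reads on both arms were kept, 2 of 7 F0_MOR and 4 of 7 F0_SAL libraries were left for miR-547 and its treatment difference turned to -0.18.

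**Figure D4:**
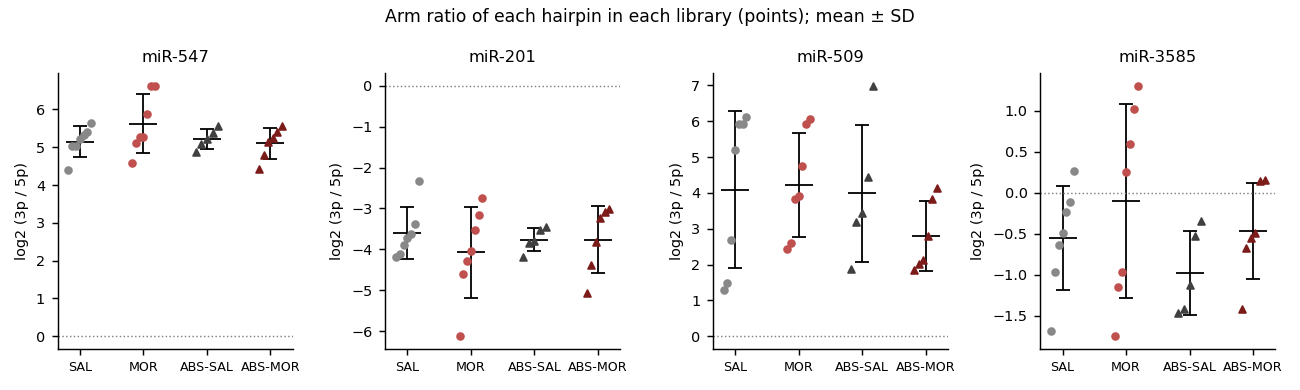
Log2 ratio of 3p to 5p raw counts (vertical axes) for each hairpin in every library, by group, with the mean and SD; the dotted line marks equal arms. miR-547 and miR-509 lie above the line and miR-201 below it in all 25 libraries, and miR-3585 lies on both sides.

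Covariation between libraries was examined after removing each group's mean from log2 CPM, the TMM-normalized level per library size. Differences between group means, by treatment or timepoint, therefore did not enter it. Differences between males within a group were not removed. Over 25 libraries, 18 of the 21 pairs of tested members correlated positively, with a median Pearson r of 0.33 against 0.01 over all 50086 pairs of tested miRNAs, of which 51.3% were positive. The p-values came from 100000 permutations of libraries within groups, the smallest they can give being 1e-05, and 7 of the 21 pairs had an adjusted p under 0.1. Spearman's rho gave 6 such pairs.

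The prevailing arms rno-miR-547-3p, rno-miR-201-5p and rno-miR-509-3p, formed the tightest set. rno-miR-201-5p and rno-miR-509-3p correlated at r = 0.81 (permutation p = 1e-05, adjusted p = 0.000105, rho = 0.77), rno-miR-547-3p and rno-miR-201-5p at r = 0.78 (permutation p = 4e-05, adjusted p = 0.00028, rho = 0.76), and rno-miR-547-3p and rno-miR-509-3p at r = 0.76 (permutation p = 1e-05, adjusted p = 0.000105, rho = 0.78). Without the 2 libraries farthest from the median of the first-named miRNA, r was 0.78, 0.74 and 0.81. Within single groups of at least 6 libraries the first pair gave r = 0.63 in F0_SAL, 0.90 in F0_MOR and 0.92 in F0_ABS-MOR, and the third 0.71, 0.83 and 0.97. The second pair was uneven, with r = 0.27 in F0_SAL against 0.95 and 0.88.

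The arms of 1 hairpin did not always go together. rno-miR-547-3p and rno-miR-547-5p correlated at r = 0.71 (permutation p = 0.00015, adjusted p = 0.000787). By contrast r was 0.33 for the arms of miR-3585 (permutation p = 0.178, adjusted p = 0.312) and 0.11 for those of miR-201 (permutation p = 0.654, adjusted p = 0.808). rno-miR-201-3p was the member least like the others, with r = -0.17 against rno-miR-547-3p and -0.41 against rno-miR-547-5p (permutation p = 0.101, adjusted p = 0.193), though with 2 to 64 reads per library its counting error is large. It went with rno-miR-3585-3p (r = 0.57, permutation p = 0.0146, adjusted p = 0.0512), a pair with r = -0.54 within F0_SAL. The remaining pairs with an adjusted p under 0.1 were rno-miR-201-5p with rno-miR-3585-5p (r = 0.57, adjusted p = 0.0268, by permutation) and rno-miR-547-5p with rno-miR-509-3p (r = 0.49, adjusted p = 0.0739, by permutation).

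**Figure D5:**
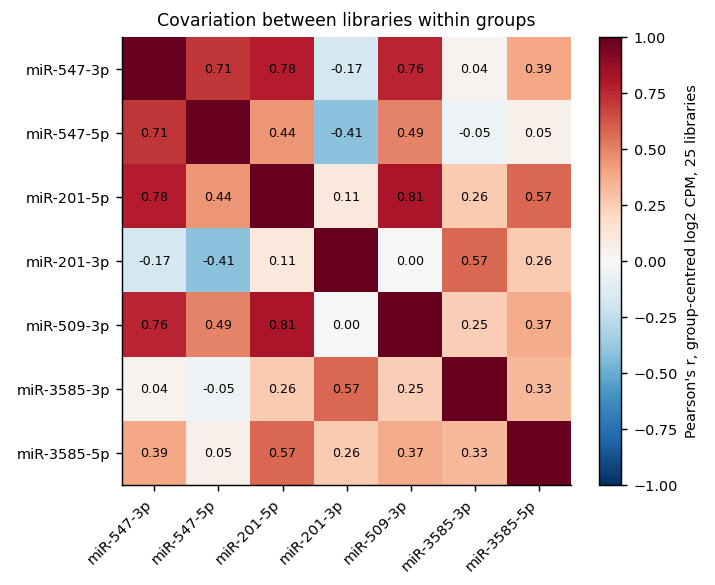
Pearson's r between the 7 tested members over 25 libraries after removal of group means, on a colour scale from -1 to 1 with the value in each cell. The warm block joins miR-547-3p, miR-201-5p and miR-509-3p (0.76 to 0.81), and miR-201-3p has values near or below 0 against miR-547-3p and miR-547-5p.

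Among the other 316 tested miRNAs, those most like rno-miR-547-3p across libraries within groups were ranked by the same r. Of the members rno-miR-201-5p ranked 1, rno-miR-509-3p 4, rno-miR-547-5p 7, rno-miR-3585-5p 39, rno-miR-3585-3p 157 and rno-miR-201-3p 227. Outside the members, the 5 highest were rno-miR-141-3p (r = 0.78, rho = 0.67), rno-miR-200b-3p (0.77, 0.78), rno-miR-96-5p (0.75, 0.77), rno-miR-200a-3p (0.72, 0.70) and rno-miR-10a-3p (0.68, 0.62), given as a description over 25 libraries. rno-miR-141-3p, rno-miR-200b-3p and rno-miR-200a-3p belong to the miR-200 family, which is characteristic of epithelia, and are on the epithelial marker list. The list as a whole, as its mean log2 level, correlated with rno-miR-547-3p at 0.75, with rno-miR-201-5p at 0.81 and with rno-miR-509-3p at 0.80, and with the other 4 members at 0.20 to 0.45. Against the sperm list the same 3 miRNAs had r = -0.28, -0.25 and -0.42. The 21 tested arms of the X-linked list from the Slitrk2 side correlated with rno-miR-547-3p at a median of -0.05 (-0.43 to 0.29).

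Removing the epithelial level as well as the group mean, which was also added after the data had been seen, lowered the correlations of the tight set. r fell to 0.44 for rno-miR-547-3p with rno-miR-201-5p (permutation adjusted p = 0.125), to 0.41 for rno-miR-547-3p with rno-miR-509-3p (permutation adjusted p = 0.159) and to 0.47 for rno-miR-201-5p with rno-miR-509-3p (permutation adjusted p = 0.109). Of the 21 pairs 12 were then positive and 9 negative, with a median r of 0.13, and 5 had an adjusted p under 0.1. These were the arms of miR-547 (r = 0.63, permutation adjusted p = 0.0399), rno-miR-201-3p with rno-miR-3585-3p (r = 0.55, permutation adjusted p = 0.0779) and rno-miR-201-5p with rno-miR-3585-5p (r = 0.49, permutation adjusted p = 0.0801), and, both negative, rno-miR-201-3p with rno-miR-547-3p (r = -0.51, permutation adjusted p = 0.0643) and with rno-miR-547-5p (r = -0.58, permutation adjusted p = 0.0778). The part of epithelial RNA in the timepoint differences of the members was not tested beyond these fits.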

How the data were processed

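The authors deposited raw counts of reads per mature miRNA, 1 column per library, made with sRNAbench by alignment to the rat genome (rn6) and annotation to miRBase; no count was 1 and the smallest above 0 was 2. A matrix of ncRNA counts served only for joint scaling. Members and lists were chosen with earlier results of these data known. Counts were fitted over 4 groups with edgeR 4.0.16 (R 4.3.3; TMM, filterByExpr with at least 10 counts, quasi-likelihood test, Benjamini–Hochberg adjustment over 317 miRNAs), and standard errors are approximations from the F statistic. DESeq2 1.42.0 and limma 3.58.1 were alternatives. Arm ratios and correlations used permutation tests (scipy), with log2 CPM at a prior count of 2. The edgeR test of F0_MOR against F0_SAL, the exact permutation test at the same group sizes and the Pearson correlation test were tried on simulated data. Named were all members, the X-linked list by counts with its most and least abundant and called arms, and the 5 miRNAs most like miR-547-3p. All 300 pairs of libraries differed beyond sampling noise (lowest chi-square over degrees of freedom, 35.1). Libraries are separate biological replicates per the labels.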

Additional observations from a re-analysis of the deposited data

How the results depend on the processing

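The count of called members stayed at 0 in each treatment comparison and in the interaction under every alternative fit and with each library left out, and the members' median timepoint difference stayed positive, at 0.80 to 1.10 (saline) and 0.66 to 1.03 (morphine) with each library left out. Uncalled treatment differences near 0 changed sign: rno-miR-547-3p between F0_MOR and F0_SAL was -0.12 with TMM factors from both matrices joined, -0.020 with no filter, -0.017 with log2 total count as covariate and -0.015 on thinned counts. Joined factors also gave -0.017 for rno-miR-3585-5p and -0.078 for rno-miR-201-3p. In abstinent males rno-miR-509-3p was -0.085 with the total count covariate, and rno-miR-3585-5p was -0.0022 in DESeq2, -0.0063 with joined factors, -0.028 in limma-voom and -0.013 with only the groups compared. The interaction of rno-miR-547-3p was 0.11 on total counts. With each library left out, differences between F0_MOR and F0_SAL ran from -0.095 to 0.061 for rno-miR-547-3p, -0.26 to 0.34 for rno-miR-3585-5p and -0.10 to 0.36 for rno-miR-201-3p; between F0_ABS-MOR and F0_ABS-SAL from -0.067 to 0.22 for rno-miR-547-3p, -0.085 to 0.25 for rno-miR-509-3p and -0.40 to 0.17 for rno-miR-3585-5p; the interaction of rno-miR-547-3p from -0.25 to 0.075. The cause of these changes was not tested. Total count scaling raised the median of all miRNAs by 0.39 (saline timepoint), 0.18 (morphine timepoint) and 0.19 (F0_MOR against F0_SAL), with the members 0.95, 0.84 and 0.17 above it, and rno-miR-201-5p then stood at 1.25 in saline males. On total counts 110 miRNAs were called higher and 1 lower in saline males, against 71 and 34, and 57 and 14 in morphine males (56 and 18 with joined factors), against 35 and 32. Epithelial markers as covariate gave -0.085 and -0.27 for rno-miR-509-3p.

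Without libraries under 10 reads on an arm, which leaves fewer libraries, the arm ratio difference was -0.18 for miR-547 between F0_MOR and F0_SAL, 0.17 between F0_ABS-MOR and F0_MOR, and 0.18 for miR-201 between F0_MOR and F0_SAL; for miR-509 too few were left. A pseudocount of 2 gave 0.019 for miR-201 in abstinent males. With each library left out, miR-547 ran from 0.30 to 0.64 and from -0.22 to 0.011 in the 2 treatment comparisons, and from -0.05 to 0.16 and -0.69 to -0.35 in the 2 timepoint comparisons, miR-509 from -0.34 to 0.46 between F0_MOR and F0_SAL, and miR-201 from -0.15 to 0.26 in abstinent males. Without the 2 libraries farthest from the median, 4 pairs of members had an adjusted p under 0.1 instead of 7; with each library left out, 5 to 8 pairs did, and the median r was 0.16 to 0.39. Given the epithelial level, r of rno-miR-201-5p and rno-miR-201-3p was -0.10. No paired analysis was possible because the matrix columns carry letters and no replicate numbers. Depth limits every statement on rno-miR-509-5p and on the minor arms.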

Other observations

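In nonabstinent males the ratio of rno-miR-547-3p to rno-miR-201-5p raw counts was 1.86 to 2.30 in F0_MOR (n = 7) and 2.03 to 3.39 in F0_SAL (n = 7), with medians of 2.09 and 3.05. In abstinent males the medians were 4.17 (F0_ABS-MOR) and 4.32 (F0_ABS-SAL). The ratio was looked at after the values had been seen and was not tested. Against rno-miR-3585-5p, rno-miR-547-3p gave 20.7 ± 6.69 and 20.4 ± 7.33 reads per read in F0_SAL and F0_MOR (SD, n = 7 each), 22.6 ± 8.56 in F0_ABS-SAL (SD, n = 5) and 31.1 ± 17.7 in F0_ABS-MOR (SD, n = 6), so these 2 arms kept overlapping ratios over all groups.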
